A study of Mus musculus with 13 samples.

Results

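The complement system was followed through liver cell populations by 33 listed genes that encode its components, receptors and regulators. Of these, 31 had a probe set with a single gene symbol, among 19537 genes with such a probe set. Where a gene had several probe sets the one of highest mean was to be taken, but every one of the 31 had a single probe set. C3 and Cfd were not analysed here. By role, the 31 genes comprised 6 of the classical pathway, 6 of the lectin pathway, 2 of the alternative pathway, 7 of the terminal pathway, 3 regulators of the fluid phase, 4 regulators on cell membranes and 3 receptors.

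Complement is a cascade of plasma proteins in which recognition molecules activate proteases, the proteases assemble convertases that cleave C3 and C5, and the terminal components build a pore in the target membrane. Inhibitors in plasma and on host cells restrain each step, and receptors on phagocytes bind the cleavage products. Most of these plasma proteins are made in the liver, largely by hepatocytes, and Kupffer cells, the resident macrophages, are known for taking up complement-coated particles.

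All cells came from naive C57BL/6 mice aged 6 to 10 weeks, and biotin-labelled cRNA was hybridised to 13 Affymetrix arrays. Hepatocytes, Kupffer cells and the endothelium of the liver sinusoids (LSEC) were sorted and measured fresh, on 3 arrays each. Hepatic stellate cells (HSC), the vitamin A-storing pericytes that become myofibroblasts in culture, were kept in DMEM with 10% fetal bovine serum and harvested after 1, 7 or 14 days, with 2 arrays of day 1 and 1 array of each later day. No HSC array was of uncultured cells, so cell type and culture cannot be told apart in any comparison of HSC with the fresh populations. Values are deposited intensities per probe set on a linear scale, and differences were tested as log2(intensity + 82.7). A call of higher or lower in a population required a limma adjusted p under 0.05 together with a log2 difference of 1 or more from every one of the other 3 populations, and a pairwise call required the same of that pair. The design text calls the arrays of 1 population biological replicates without naming separate animals, and p-values measure the spread between these arrays, which may be technical.

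Marker lists of each population were highest on its own arrays. The 18 measured hepatocyte markers, led by Alb, Apoa1, Ahsg and Fgg, summed to between 185689 and 199862 on hepatocyte arrays. The same markers summed to 25302 and 13705 on the 1-day HSC arrays, to between 3389 and 7319.8 on Kupffer cell arrays and to between 2167 and 2416 on LSEC arrays. Alb itself read 8855 and 6285 on the 1-day HSC arrays, against 18474, 18674 and 18564 on hepatocyte arrays, and 114 and 113 on the 7-day and 14-day HSC arrays. Hepatocyte transcripts were thus read on both 1-day HSC arrays, with 16 of 18 markers higher on replicate 1 than on replicate 2. The 15 Kupffer cell markers, led by Lyz2, Slc40a1, Cd5l and Csf1r, summed to between 124449 and 125828 on Kupffer cell arrays and to 9156 and 12168 on 1-day HSC arrays. The 15 LSEC markers, led by Cdh5, Egfl7, Fcgr2b and Lyve1, summed to between 71478 and 100389 on LSEC arrays, with replicate 3 lowest, to between 16082 and 18893 on Kupffer cell arrays and to 16548 and 15775 on 1-day HSC arrays. The 15 HSC markers, led by Dcn, Acta2, Tagln and Reln, summed to 43531 and 47409.8 on the 1-day HSC arrays and to at most 4893 on any array of a fresh population. A portal fibroblast and smooth muscle list summed to 4953 and 5729 on day 1, 23397.5 on day 7 and 28489 on day 14, against at most 1336 on fresh arrays. Dpt and Rgs5 of this list, named after their values were seen, went the other way. Dpt read 728 and 1058 on day 1, 150 on day 7 and 51.9 on day 14, and Rgs5 read 1101 and 1144, 287 and 128. The rest of the list was higher on both later arrays than on day 1. A mesothelial list summed to 878 and 880, 1323 and 2604 on the same HSC arrays, against at most 1215. What such cells added to the HSC levels was not tested. Lists for B and plasma cells, dendritic cells and neutrophils were also higher on Kupffer cell arrays than elsewhere. The B and plasma cell list summed to between 1957 and 3415 there and to at most 672 on any other array. The dendritic cell list summed to between 3805 and 4790.4 there and to at most 2016 elsewhere, and the neutrophil list to between 2056 and 2169.7 there and to at most 819 elsewhere. Most of the dendritic cell sum came from Clec9a, at 3066, 2797 and 2224 on Kupffer cell arrays, and Batf3, at 969, 907 and 875. Both were named after their values were seen. Flt3, Xcr1, Zbtb46, Siglech and Cd209a read between 91.1 and 240 on those arrays, and Zbtb46 was highest on LSEC arrays. The neutrophil sum was carried by 1 marker, Csf3r, named after its values were seen, at 1492, 1392 and 1536 on Kupffer cell arrays and at most 186 elsewhere, while the other 6 markers read between 52.8 and 200.4 on Kupffer cell arrays. In such bulk samples, fewer cells of a type and less RNA per cell cannot be told apart.

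Most complement genes had a population of their own. Of the 31 genes, 25 (80.6%) were higher in 1 population than in each of the others, a call made for 18.3% of the 12081 genes tested. Hepatocytes were higher for 13 of 31 genes, against 6.8% of all genes. Kupffer cells were higher for 8, against 6.53%, LSEC for 1, against 2.35%, and 1-day HSC for 3, against 2.59%. Lower calls were few: Cd55 in hepatocytes (2.72% of all genes), Masp1 in Kupffer cells (2.28%) and C4b and Cfb in LSEC (0.406%), with none in 1-day HSC (0.281%). Counts by role split the same way, with 5 of 7 terminal components and 3 of 3 fluid-phase regulators higher in hepatocytes and 3 of 3 receptors higher in Kupffer cells. C2, Colec12, Cd59a, Cd46 and Cr1l were set apart in no population. For 9 of the 31 genes the intensity exceeded the pooled median, the filter of the test, in 1 population only, so these had to differ: Mbl1, Mbl2, Masp2, C8a, C8b, C9, C4bp and Cfi in hepatocytes and C7 in 1-day HSC. The p-values printed below for these 9 genes are therefore no evidence of a difference.

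Pairwise, hepatocytes differed from the other populations in most of the 31 genes. They were higher than Kupffer cells in 15 and lower in 9 (12% and 13.7% of all genes), higher than LSEC in 16 and lower in 1 (10% and 12.5%), and higher than 1-day HSC in 17 and lower in 8 (10.1% and 12.3%). Kupffer cells were higher than LSEC in 13 and lower in 3 (9.54% and 10.3%), and higher than 1-day HSC in 13 and lower in 4 (11.7% and 12.9%). LSEC were higher than 1-day HSC in 2, Cd55 and Cd59a, and lower in 11 (5.24% and 5.61%). The median log2 difference over the 31 genes was 1.91 for hepatocytes over LSEC and 1.55 for hepatocytes over 1-day HSC, where all genes had medians of -0.10 and -0.08. These contrasts share arrays and are not independent of each other.

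**Figure D1:**
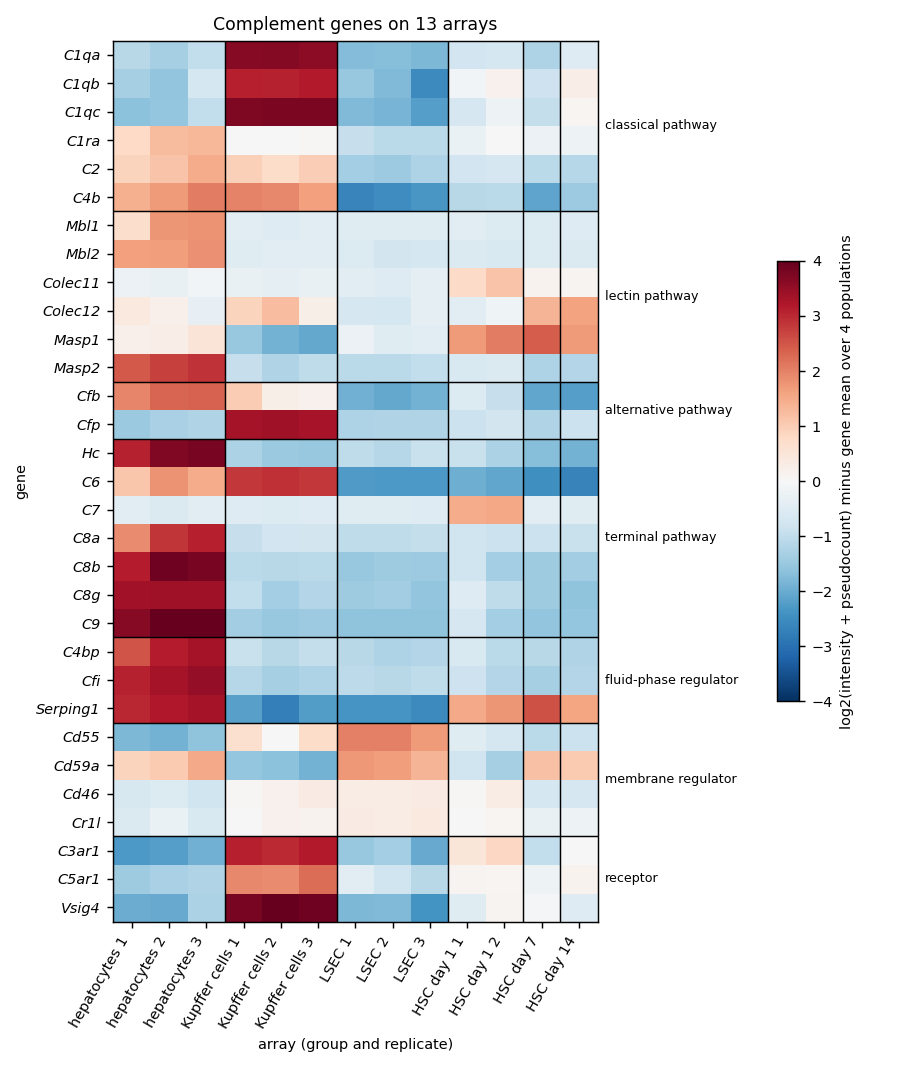
Heat map of 31 complement genes (rows, grouped by role) on 13 arrays (columns), coloured by log2(intensity + 82.7) minus the gene's mean over the 4 populations, so red is above and blue below that mean, with colours ending at 4 in either direction. Blocks of red mark the 13 hepatocyte genes and the 8 Kupffer cell genes, while Colec11, Masp1 and C7 are red on the 1-day HSC arrays.

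The bases upstream of 8 of these genes show what neighbouring or jointly called genes carry at their starts. RefSeq windows (GRCm38.p6) were found for 23 of the 31 genes, 24 windows in all, and were not found for C1qa, C2, C4b, Colec12, Masp1, Cfb, Cfi and Serping1. Each stretch below is the 150 bases that end just before the annotated start, written along the gene's own strand. C6, C7 and C9 are shown because they lie together on chromosome 15 and were each highest in a different population. Hc, C8a and C4bp, higher in hepatocytes, and C1qb and Vsig4, higher in Kupffer cells, are genes whose stretches hold a motif match, and do not represent their groups. The stretches are chr15:4727060-4727209 (plus strand) for C6, chr15:5063774-5063923 (minus) for C7, chr15:6445196-6445345 (plus) for C9, chr2:35061413-35061562 (minus) for Hc, chr4:104876399-104876548 (minus) for C8a, chr1:130661619-130661768 (minus) for C4bp, chr4:136886201-136886350 (minus) for C1qb and chrX:96293439-96293588 (minus) for Vsig4. Capitals mark a match to 1 of 4 motifs searched on both strands: GTTAAT, an HNF1 motif, in Hc, C8a and C4bp, TTGCNNAA, a C/EBP motif, in C9, and GAGGAA, the PU.1 core, in C1qb and Vsig4. In Hc the match is on the opposite strand and reads as its reverse complement. Of the stretches not printed, those of Mbl1, Mbl2, Masp2, C8b, C8g and C1ra (higher in hepatocytes) hold no match. The same is true of C3ar1, C5ar1 and C1qc (higher in Kupffer cells). That of Cfp, higher in Kupffer cells, holds GTTAAT, and that of Cd59a, set apart in no population, holds GAGGAA.
C6: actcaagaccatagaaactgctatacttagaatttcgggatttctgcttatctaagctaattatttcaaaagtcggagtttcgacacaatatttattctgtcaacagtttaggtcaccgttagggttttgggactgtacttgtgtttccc
C7: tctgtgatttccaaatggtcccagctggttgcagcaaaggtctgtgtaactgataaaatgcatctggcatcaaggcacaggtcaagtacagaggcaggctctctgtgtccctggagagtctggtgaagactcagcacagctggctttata
C9: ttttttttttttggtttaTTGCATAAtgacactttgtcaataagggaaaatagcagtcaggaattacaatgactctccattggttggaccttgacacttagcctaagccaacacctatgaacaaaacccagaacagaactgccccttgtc
Hc: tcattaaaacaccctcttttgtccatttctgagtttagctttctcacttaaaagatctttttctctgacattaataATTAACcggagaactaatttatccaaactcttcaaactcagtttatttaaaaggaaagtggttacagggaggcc
C8a: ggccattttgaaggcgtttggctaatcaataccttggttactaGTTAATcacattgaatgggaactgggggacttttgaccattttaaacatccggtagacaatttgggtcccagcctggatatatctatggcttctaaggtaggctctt
C4bp: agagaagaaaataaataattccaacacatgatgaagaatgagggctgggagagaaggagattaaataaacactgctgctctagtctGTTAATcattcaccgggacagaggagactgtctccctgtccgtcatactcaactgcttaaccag
C1qb: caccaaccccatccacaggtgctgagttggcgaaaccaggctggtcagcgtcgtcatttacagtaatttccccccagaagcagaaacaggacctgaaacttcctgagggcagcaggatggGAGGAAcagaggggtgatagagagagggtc
Vsig4: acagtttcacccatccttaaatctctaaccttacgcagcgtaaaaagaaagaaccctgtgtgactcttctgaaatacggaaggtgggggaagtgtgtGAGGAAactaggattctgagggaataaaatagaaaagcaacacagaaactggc

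Over the 250 bases upstream, GTTAAT was found in 5 of the 11 windows of genes higher in hepatocytes (C4bp, Hc, C8b, C8a and C1ra), in 1 of 7 windows of genes higher in Kupffer cells (Cfp) and in the window of C7. It was found in 6.43% of all 32851 windows. GAGGAA was found in 3 of 7 windows of genes higher in Kupffer cells (C1qb, C1qc and Vsig4) and in 0 of 11 of those higher in hepatocytes. The window of Cd59a, a gene set apart in no population, also held it, as did 23.3% of all windows. TTGCNNAA occurred in 1 of 11 hepatocyte windows (C9) and in 9.56% of all, and CAAAGTCCA, an HNF4 motif, in no window of these genes and in 0.384% of all. No match of 1 motif overlapped a match of another in these windows. A match describes letters only, and no binding was measured.

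The recognition molecule of the classical pathway, C1q, had its highest transcript levels in Kupffer cells. Its A, B and C chains are encoded by C1qa, C1qb and C1qc, which lie next to each other with no protein-coding gene between. C1qa read 10542, 10729 and 9969.9 on Kupffer cell arrays, 309, 256 and 348 on hepatocyte arrays, 172, 180.3 and 161 on LSEC arrays and 413 and 439 on 1-day HSC arrays. All 3 Kupffer cell arrays lay far above the other 8. C1qb averaged 13964 ± 427 in Kupffer cells (SD, n = 3) and 1569 ± 238 in 1-day HSC (SD, n = 2), while C1qc averaged 15622 ± 186 and 788 ± 199 in the same groups. Against 1-day HSC, the nearest population, the log2 differences were 4.37 ± 0.101 (SE, adjusted p = 8.3e-12) for C1qa, 3.10 ± 0.281 (adjusted p = 8.9e-07) for C1qb and 4.19 ± 0.198 (adjusted p = 2e-09) for C1qc.

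The proteases and convertase subunits that act after C1q were not highest in Kupffer cells alone. C1ra, a protease of the C1 complex, read 552, 794 and 837 on hepatocyte arrays, 289, 278 and 293 on Kupffer cell arrays, 112, 91.7 and 91.6 on LSEC arrays and 225 and 291 on 1-day HSC arrays. The hepatocyte arrays lay above all others, by 1.12 on the log2 scale over Kupffer cells (SE 0.129, adjusted p = 9.5e-06). This call was lost at 0.88 when the pooled median was added before taking logs. C1ra has the close copy C1rb, and probes of such copies may share signal.

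C4b and C2, whose products form the C3 convertase of the classical and lectin pathways, were shared by hepatocytes and Kupffer cells. C4b read 3467, 4295 and 5460.2 on hepatocyte arrays, 5215, 4962 and 4127 on Kupffer cell arrays, 133, 157 and 182 on LSEC arrays and 543 and 549 on 1-day HSC arrays. Hepatocytes and Kupffer cells overlapped, with a log2 difference of -0.13 (95% interval -0.45 to 0.19, adjusted p = 0.46), and both were above LSEC, by 4.21 for hepatocytes and 4.33 for Kupffer cells. LSEC was lower than each other population, with a log2 difference of -1.39 from 1-day HSC (SE 0.164, adjusted p = 2.4e-05). C2 read 1044, 1279 and 1619 on hepatocyte arrays and 1095, 928 and 1118 on Kupffer cell arrays. These overlapped too, at a log2 difference of 0.29 (95% interval 0.0016 to 0.58, adjusted p = 0.069), whereas LSEC arrays read 158, 143 and 178 and 1-day HSC arrays 279 and 302. Hepatocyte markers on Kupffer cell arrays had medians of 2.31%, 1.33% and 1.85% of their hepatocyte mean, with Alb highest at 18.2%, 5.53% and 12.3%. C4b stood at 118%, 113% and 93.6% and C2 at 83.3%, 70.7% and 85.1% of the hepatocyte mean on the same arrays, and the part of hepatocyte RNA in these levels was not tested. C4a, the near copy of C4b, read 667, 661 and 935 on hepatocyte arrays and 487, 534 and 335 on Kupffer cell arrays, and the same limit holds.

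The recognition molecules of the lectin pathway were highest in different populations. Mbl2, which encodes a mannose-binding lectin, read 1119, 1131 and 1275 on hepatocyte arrays, 190.3, 203 and 201 on Kupffer cell arrays, 178, 147 and 151 on LSEC arrays and 174 and 168 on 1-day HSC arrays. Mbl1, the second mannose-binding lectin, read 244, 602 and 602 on hepatocyte arrays and between 55.1 and 66.1 on the arrays of the other 3 populations. Hepatocyte replicate 1 was the lowest of its group for Mbl1, yet still above every other array. The log2 differences over Kupffer cells were 2.16 ± 0.0788 (SE, adjusted p = 4.2e-10) for Mbl2 and 1.89 ± 0.217 (adjusted p = 2e-05) for Mbl1. Colec11, a soluble collectin, was instead highest in 1-day HSC, with 612 and 827, against 265, 249.5 and 293 in hepatocytes, 253, 237 and 253 in Kupffer cells and 222, 202 and 236 in LSEC. The log2 difference over hepatocytes was 1.18 (SE 0.112, adjusted p = 1.5e-06), and the fresh populations lay close together. This difference was 0.93 with the pooled median added and 0.98 without 1-day HSC replicate 2, both under the minimum of 1. Colec12, a membrane-bound scavenger receptor collectin, varied within groups, at 1432, 1829 and 879 in Kupffer cells and 985, 855 and 556 in hepatocytes, and was set apart in no population.

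The 2 proteases that travel with these lectins were highest in different populations. Masp2, which cleaves C4 and C2, read 2361, 2877 and 3268 on hepatocyte arrays, 155, 113 and 136 on Kupffer cell arrays, 129.9, 127 and 145 on LSEC arrays and 211 and 215 on 1-day HSC arrays. Hepatocytes exceeded 1-day HSC by 3.29 (SE 0.125, adjusted p = 4.1e-10). Masp1, which activates Masp2, read 3399 and 4303 on 1-day HSC arrays, against 1154, 1196 and 1425 on hepatocyte arrays, 823, 685 and 687 on LSEC arrays and 286, 204 and 176 on Kupffer cell arrays. No 2 populations overlapped. 1-day HSC were above hepatocytes by 1.55 (SE 0.156, adjusted p = 2.6e-06), and Kupffer cells were lower than LSEC, at -1.43 (SE 0.140, adjusted p = 1.8e-06).

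The alternative pathway divided between hepatocytes and Kupffer cells. Cfb, the protease subunit of its convertase, read 4203, 5464 and 5528 on hepatocyte arrays, 2140.1, 1208 and 1159 on Kupffer cell arrays, 207, 183 and 216 on LSEC arrays and 674 and 500.3 on 1-day HSC arrays. Hepatocytes were highest, by 1.74 over Kupffer cells (SE 0.197, adjusted p = 5.3e-06). Kupffer cell replicate 1, the highest of its group for Cfb, was also the Kupffer cell array with the most hepatocyte marker signal, and its part in the Cfb level was not tested. LSEC was lower than 1-day HSC, at a log2 difference of -1.23 (SE 0.221, adjusted p = 6.7e-04), a call that was lost at -0.92 with the pooled median added. Cfp, which encodes properdin, the stabiliser of that convertase, read 10654, 11109 and 10437 on Kupffer cell arrays and between 303 and 569 on all other population arrays. The log2 difference over 1-day HSC was 4.12 (SE 0.0919, adjusted p = 7.2e-12).

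All 7 terminal components were higher in 1 population, but not in the same one. Hc, which encodes C5, read 5019, 7862 and 8260.5 on hepatocyte arrays, 169, 132 and 129 on Kupffer cell arrays, 217, 191 and 245 on LSEC arrays and 244 and 171 on 1-day HSC arrays. C9, the pore-forming component, read 5458, 8579 and 8780.4 on hepatocyte arrays, 87.9, 75.0 and 81.5 on Kupffer cell arrays, 63.4, 62.1 and 64.5 on LSEC arrays and 197 and 90.9 on 1-day HSC arrays. Hepatocyte replicate 1 was the lowest of its group for both, and no other array came near the hepatocyte range. Their log2 differences from the nearest population were 4.54 ± 0.169 (SE, adjusted p = 7.7e-10) for Hc and 5.09 ± 0.206 (adjusted p = 6.5e-10) for C9. The genes of the 3 chains of C8 followed the same order, with C8a and C8b lying side by side with no protein-coding gene between. C8a averaged 2478 ± 989 in hepatocytes, C8b 6359 ± 1628 and C8g 6093 ± 87.8 (SD, n = 3 each). On the other population arrays C8a read at most 152, C8b at most 215 and C8g at most 334. Their differences over the nearest population were 3.43 ± 0.226 (adjusted p = 1.5e-07), 4.68 ± 0.195 (adjusted p = 8.5e-10) and 4.14 ± 0.142 (adjusted p = 1.8e-10). C9, C8a and C8b passed the filter through hepatocytes only, so their p-values are no evidence of a difference.

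C6 and C7, which join C5b in turn to start the membrane attack complex, departed from that pattern. C6 read 6749.9, 7163 and 6734 on Kupffer cell arrays, 1998, 3271 and 2633 on hepatocyte arrays, 118, 113 and 112 on LSEC arrays and 166 and 145 on 1-day HSC arrays. Every Kupffer cell array was above every hepatocyte array, by 1.38 on the log2 scale (SE 0.134, adjusted p = 1.2e-06), and hepatocytes in turn exceeded LSEC by 3.76 (adjusted p = 1.5e-10). On the hepatocyte arrays C6 stood at 29.0%, 47.5% and 38.2% of its Kupffer cell mean, while the Kupffer cell markers there had medians of 1.89%, 1.60% and 2.33%. The highest marker, Cd68, named after its values were seen, stood at 51.8%, 46.5% and 50.2%, and the part of Kupffer cell RNA in the hepatocyte level of C6 was not tested. C7 read 451 and 475 on 1-day HSC arrays and between 46.3 and 61.7 on all arrays of the other 3 populations. The log2 difference over hepatocytes was 1.99 (SE 0.0776, adjusted p = 1.5e-09), a value that understates the fold because of the constant added. Means of C7 were 463 ± 17.0 in 1-day HSC (SD, n = 2) and 55.0 ± 7.86 in hepatocytes (SD, n = 3). Without either 1-day HSC array C7 failed the filter and was not tested. The number of genes higher in 1-day HSC was then 2 without replicate 1 and 1 without replicate 2, in place of 3.

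C6, C7 and C9 lie along chromosome 15, with 1 protein-coding gene between C6 and C7 and 6 between C7 and C9. Each was highest in a different population, C6 in Kupffer cells, C7 in 1-day HSC and C9 in hepatocytes. Of the 3 stretches printed above, that of C9 holds the TTGCNNAA match and those of C6 and C7 hold none of the 4 motifs.

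**Figure D2:**
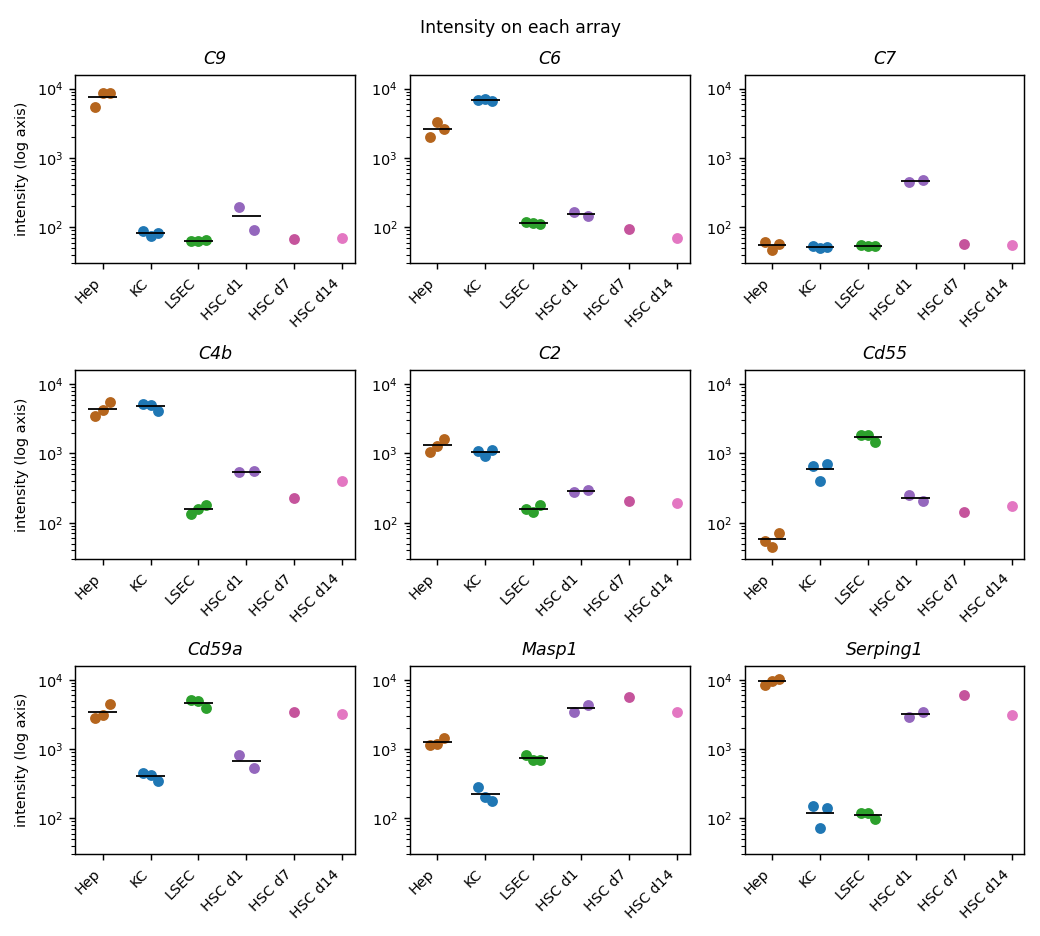
Intensity (log axis) of 9 complement genes on each array, with points for single arrays and black lines for group means where there was more than 1 array (Hep, hepatocytes; KC, Kupffer cells; d1, d7 and d14, days in culture). C9 is high on hepatocyte arrays only, C6 on Kupffer cell and hepatocyte arrays and C7 on 1-day HSC arrays only, while Masp1 and Serping1 stay high on all 4 HSC arrays.

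The 3 regulators that act in plasma were all higher in hepatocytes. C4bp, a subunit of the C4b-binding protein, averaged 2928 ± 835 there (SD, n = 3) and at most 158 on any other population array. Cfi, the protease that degrades C3b and C4b, averaged 3472 ± 539 (SD, n = 3) against at most 117. Their log2 differences over 1-day HSC were 3.84 ± 0.202 (SE, adjusted p = 6.8e-09) and 4.30 ± 0.130 (adjusted p = 6.7e-11). Serping1, the C1 inhibitor, read 8453, 9503 and 10354 on hepatocyte arrays, 2886 and 3444 on 1-day HSC arrays, 148, 72.7 and 139.9 on Kupffer cell arrays and 119.9, 119.6 and 96.2 on LSEC arrays. Hepatocytes exceeded 1-day HSC by 1.55 (SE 0.160, adjusted p = 3.1e-06). The 1-day HSC were themselves above LSEC by 4.06 (adjusted p = 1.7e-09) and above Kupffer cells by 4.02 (adjusted p = 4.3e-10), so Serping1 was high in both.

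Of the 4 regulators on cell membranes, 1 was set apart. Cd55, which speeds the decay of convertases, read 1849, 1827 and 1482 on LSEC arrays, 663, 398 and 701 on Kupffer cell arrays, 255 and 207 on 1-day HSC arrays and 55.3, 44.9 and 71.6 on hepatocyte arrays. No 2 populations overlapped. LSEC exceeded Kupffer cells by 1.45 (SE 0.166, adjusted p = 7.6e-06), and hepatocytes were below 1-day HSC, at -1.16 (SE 0.186, adjusted p = 1.3e-04). The second call was lost at -0.69 with the pooled median added. On the 1-day HSC arrays Cd55 stood at 14.8% and 12.1% of its LSEC mean, and the LSEC markers had medians of 13.6% on both. On the Kupffer cell arrays Cd55 stood at 38.5%, 23.1% and 40.7% and the markers had medians of 7.55%, 6.16% and 5.01%, the highest being Cdh5 at 72.4%, 70.1% and 65.9%. The part of LSEC RNA in these Cd55 levels was not tested. Cd55b, a close copy, was also higher in LSEC, at 274, 204 and 240.0 against at most 69.6 elsewhere, and the probes of the pair may share signal.

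Cd59a, which blocks assembly of the terminal pore, was high in LSEC and hepatocytes alike, at 5101, 4903 and 3952 on LSEC arrays, 2838, 3138 and 4417 on hepatocyte arrays, 456, 421 and 339 on Kupffer cell arrays and 809.7 and 537 on 1-day HSC arrays. LSEC and hepatocytes overlapped, with a log2 difference of 0.43 (95% interval 0.05 to 0.82, adjusted p = 0.046), under the minimum of 1. LSEC was above Kupffer cells by 3.28 (adjusted p = 6.7e-09), and hepatocytes were above them by 2.84 (adjusted p = 1.8e-08). Cd59b, a close copy of Cd59a, read 129, 126 and 103 on LSEC arrays and 197, 233 and 287 on hepatocyte arrays. Cd46, a cofactor for the breakdown of C3b whose mouse form is best known from sperm, and Cr1l, the rodent regulator also called Crry, were lowest in hepatocytes among these 4 populations without reaching the minimum difference. Cd46 read between 64.1 and 92.0 in hepatocytes and between 181 and 239.9 in the other 3 populations, and Cr1l between 234 and 318 in hepatocytes and between 405 and 556 in the other 3. On the 7-day and 14-day HSC arrays, Cd46 read 74.7 and 78.6 and Cr1l 313 and 338.

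All 3 receptors were higher in Kupffer cells. C3ar1, the receptor for the C3a fragment, read 9111, 8215 and 9480.4 on Kupffer cell arrays, 1413 and 1810.2 on 1-day HSC arrays, 286, 334 and 181 on LSEC arrays and 135, 148 and 199 on hepatocyte arrays. C5ar1, the receptor for C5a, read 1749, 1728 and 2206 on Kupffer cell arrays and between 99.5 and 459 on every other array of the series. Vsig4, a phagocytic receptor for C3b and iC3b that marks Kupffer cells, read 9619, 12054 and 10342 on Kupffer cell arrays, 417 and 673 on 1-day HSC arrays, 122, 125 and 52.6 on LSEC arrays and 93.7, 89.8 and 211 on hepatocyte arrays. The Kupffer cell arrays stood apart for each. Log2 differences over 1-day HSC were 2.42 ± 0.180 (SE, adjusted p = 1.4e-07) for C3ar1, 1.92 ± 0.165 (adjusted p = 5.2e-07) for C5ar1 and 4.12 ± 0.255 (adjusted p = 2.5e-08) for Vsig4. Dendritic cells and neutrophils can carry some of these receptors, and what they added to the Kupffer cell levels was not tested.

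The signal of other populations' complement genes on HSC arrays was set beside that of the corresponding markers. On the 1-day HSC arrays the 13 genes higher in hepatocytes had medians of 5.83% and 5.34% of their hepatocyte mean, and the hepatocyte markers had medians of 7.57% and 4.02%. Replicate 1 was above replicate 2 for 10 of the 13 genes and for 16 of the 18 markers. On the 7-day and 14-day arrays the markers had medians of 0.919% and 0.924%, the 13 genes 3.50% and 3.05%. These levels were near those on the LSEC arrays, where the markers had medians of 1.02%, 1.02% and 1.10% and the 13 genes 3.08%, 2.72% and 3.48%. C1ra and Serping1 were the highest of the 13 on day 1, C1ra at 30.9% and 40.1% and Serping1 at 30.6% and 36.5% of the hepatocyte mean. Serping1 stood at 63.9% on day 7 and 32.4% on day 14. The part of hepatocyte RNA in the 1-day HSC levels of the 13 genes was not tested.

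**Figure D3:**
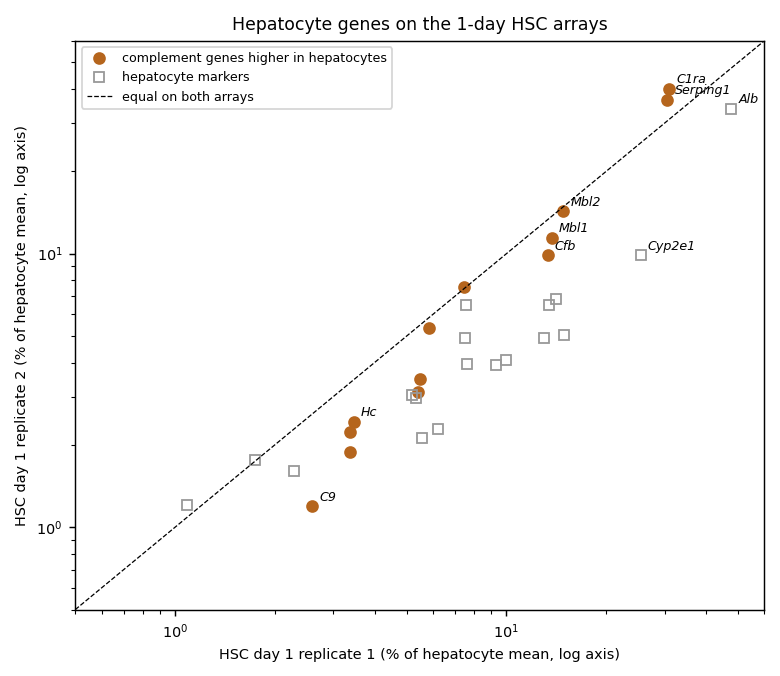
Level of 13 complement genes higher in hepatocytes (filled circles) and 18 hepatocyte markers (open squares) on the 2 arrays of 1-day HSC, each as a percentage of its hepatocyte mean on log axes, with the dashed line marking equal levels on both arrays. Alb is highest, at 47.7% and 33.8%, and most points lie below the line, where replicate 1 exceeds replicate 2.

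Kupffer cell genes were also read on the HSC arrays. The 8 genes higher in Kupffer cells had medians of 4.45% and 6.13% of their Kupffer cell mean on the 1-day HSC arrays, 4.32% on day 7 and 6.08% on day 14. The 15 Kupffer cell markers had medians of 4.25% and 7.27%, 2.90% and 3.74% on the same arrays. Lyz2, a lysozyme gene of macrophages, was the highest marker, at 21.6% and 28.5% on day 1, 18.5% on day 7 and 41.5% on day 14. C5ar1 was the highest of the 8 genes on each HSC array, at 23.3% and 22.7%, 17.8% and 24.2%. The part of macrophage RNA in these levels was not tested.

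**Figure D4:**
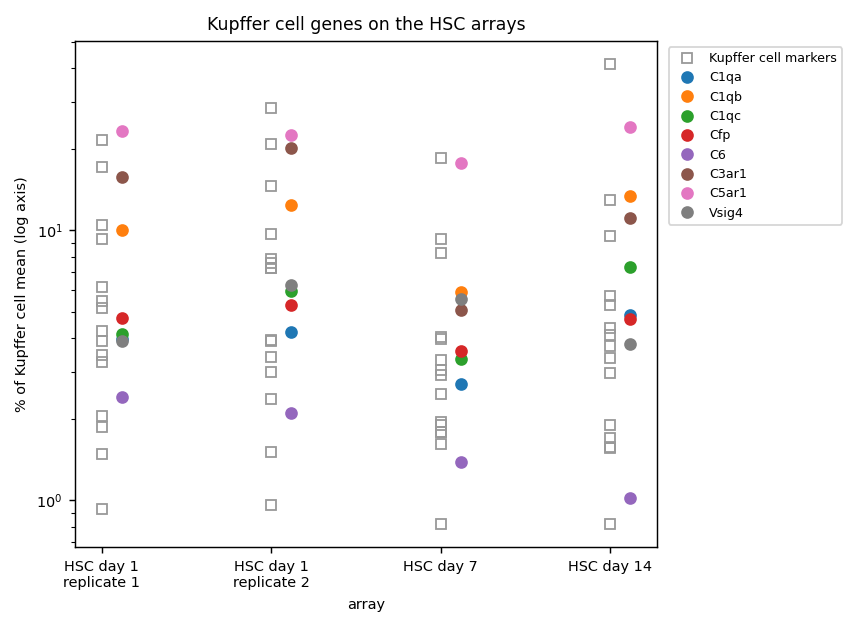
Level of 8 complement genes higher in Kupffer cells (coloured circles) and 15 Kupffer cell markers (grey squares) on the 4 HSC arrays, as a percentage of the Kupffer cell mean on a log axis. C5ar1 lies between 17.8% and 24.2% on every array, and the highest marker, Lyz2, lies between 18.5% and 41.5%.

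Of 29 other measured genes of the complement system, 22 were tested. Of these, 7 were higher in hepatocytes (6.8% of all genes), 5 in Kupffer cells (6.53%), 2 in LSEC (2.35%) and none in 1-day HSC (2.59%), so 14 of 22 (63.6%) had a population of their own. Whether they differed in this from the 31 genes was not tested. Vtn, which encodes vitronectin, an inhibitor of pore assembly, averaged 12374 ± 965 in hepatocytes (SD, n = 3) and 508 ± 314 in 1-day HSC (SD, n = 2), at a log2 difference of 4.51 ± 0.260 (SE, adjusted p = 1.6e-08). Cpn1, the carboxypeptidase that inactivates C3a and C5a, was higher in hepatocytes by 3.82 and Crp, C-reactive protein, by 3.68. C1s1, the protease partner of C1r, was higher there by 2.55 (adjusted p = 9.4e-09). Fcna, a ficolin of the lectin pathway, averaged 8523 ± 1002 in Kupffer cells (SD, n = 3) and 982 ± 158 in 1-day HSC (SD, n = 2), and Itgb2, the shared chain of complement receptors 3 and 4, averaged 4847 ± 488 in Kupffer cells (SD, n = 3). Their log2 differences over 1-day HSC were 3.02 (adjusted p = 6.6e-10) and 2.85 (adjusted p = 3.2e-09).

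A minority of the complement genes passed the test for a change in longer culture. The 7-day and 14-day HSC arrays, treated as replicates, were compared with the 2 arrays of day 1, with the spread taken from all 13 arrays, so the p-values rest largely on the spread among arrays of other cells. Among 31 genes, 2 were higher in longer culture and 3 were lower, against 5.52% and 4.27% of the 12368 genes tested. The median log2 difference was -0.30 over the 31 genes and -0.04 over all. Cd59a rose, with 809.7 and 537 on day 1, 3396 on day 7 and 3157 on day 14. Both later arrays were above both day 1 arrays, at a log2 difference of 2.17 (SE 0.213, adjusted p = 6.5e-06). Colec12 rose too, with 511 and 644 on day 1, 2011 on day 7 and 2378 on day 14, by 1.79 (SE 0.282, adjusted p = 0.00026).

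The falls were of C7, Cfb and C3ar1. C7 read 451 and 475 on day 1, 57.1 on day 7 and 55.5 on day 14, by when it lay within the range of the fresh populations, and the log2 difference was -1.97 (SE 0.0824, adjusted p = 4.2e-09). It was not tested without either day 1 array. Of the 15 HSC markers, 9 were above and 5 below both day 1 arrays on both later arrays. Acta2 was among those higher, at 7461 and 9745 on day 1, 15224 on day 7 and 14597 on day 14, and Reln among those lower, at 4331 and 4597, 2270.0 and 277. Cfb read 674 and 500.3 on day 1, 177 on day 7 and 155 on day 14, a difference of -1.42 (SE 0.237, adjusted p = 4e-04). The hepatocyte marker sum was also lower on both later arrays (2106 and 2017) than on day 1, and its part was not tested. C3ar1 read 1413 and 1810.2 on day 1, 452 on day 7 and 994 on day 14, a difference of -1.15 (SE 0.279, adjusted p = 0.0049). Its call was lost without 1-day HSC replicate 2 (-0.98, adjusted p = 0.049), without the 7-day array (-0.64, adjusted p = 0.053) and with the 4 HSC arrays alone (-1.15, adjusted p = 0.052). The Kupffer cell markers summed to 9156 and 12168 on day 1, 5991 on day 7 and 10204 on day 14, lowest on day 7 as C3ar1 was, and their part was not tested.

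Masp1 and Serping1 remained high through culture. Masp1 read 3399 and 4303 on day 1, 5579 on day 7 and 3409 on day 14, and Serping1 read 2886 and 3444, 6028 and 3059.5. Neither passed the test, at 0.19 (95% interval -0.29 to 0.66) for Masp1 and 0.44 (95% interval -0.12 to 0.99) for Serping1. The hepatocyte markers summed to 25302 and 13705 on day 1, 2106 on day 7 and 2017 on day 14, and their part in the levels of both genes was not tested. Longer-cultured HSC were higher than LSEC in both, by 2.45 (adjusted p = 4e-07) for Masp1 and 4.50 (adjusted p = 5.8e-09) for Serping1. They were also higher than hepatocytes in Masp1, by 1.73 (adjusted p = 5.9e-06), and lower in Serping1, at -1.11 (adjusted p = 0.0011). Colec11, which had been highest in 1-day HSC, read 367 and 361 on the later arrays, a difference from day 1 of -0.83 (adjusted p = 0.00012) that stayed under the minimum.

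**Figure D5:**
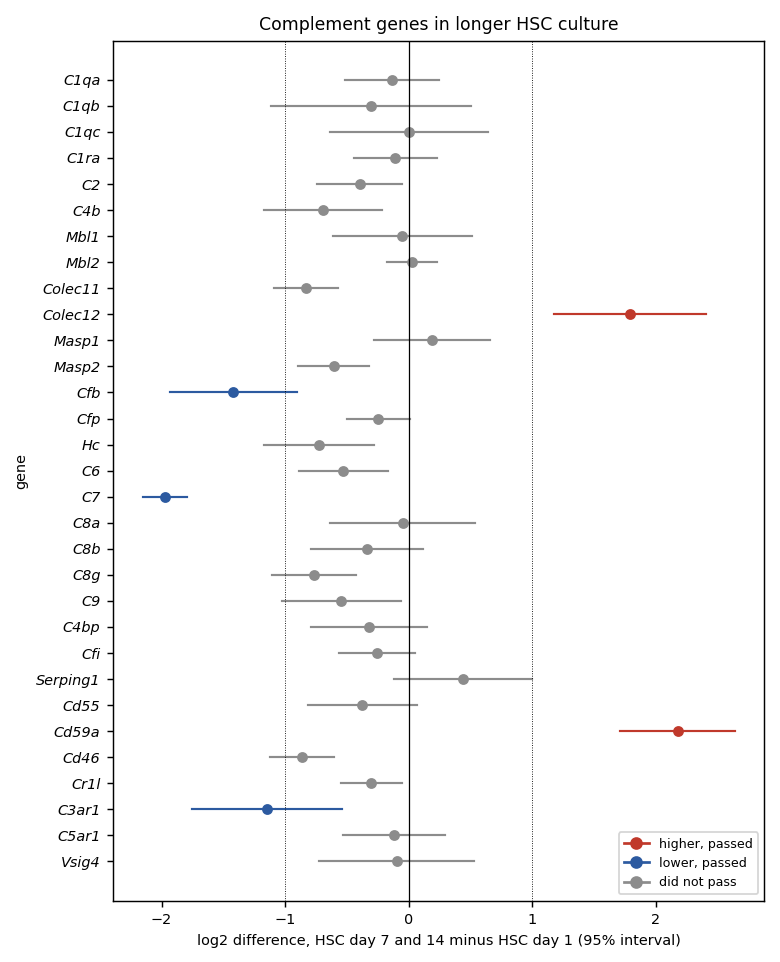
Log2 difference between longer-cultured HSC (days 7 and 14) and 1-day HSC for each of 31 complement genes, with 95% intervals and dotted lines at the minimum of 1 in either direction. Cd59a and Colec12 lie to the right of the dotted line (red), C7, Cfb and C3ar1 to the left (blue), and the other 26 (grey) did not pass.

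Against the fresh populations, the longer-cultured HSC were higher than hepatocytes in 5 of the 31 genes and lower in 16 (13.1% and 9.98% of all genes). The 5 were Colec12, Masp1, C3ar1, C5ar1 and Vsig4. The same HSC were higher than Kupffer cells in 3, which were Masp1, Serping1 and Cd59a, and lower in 12 (12.3% and 11.2%). Relative to LSEC they were higher in 7 and lower in 1, Cd55 (8.67% and 6.82%). The 7 were C1qb, C1qc, Colec12, Masp1, Serping1, C3ar1 and Vsig4. Of the genes named here, C1qb, C1qc, C3ar1, C5ar1 and Vsig4 are among the 8 higher in Kupffer cells. The part of macrophage RNA in their HSC levels was not tested. These comparisons share the same 2 HSC arrays. Between days 7 and 14, given as values with 1 array each, 3 of the 31 genes were over 1 higher on day 14 on the log2 scale, namely C1qb (1870.1 on day 14 against 825 on day 7), C1qc (1142 against 521) and C3ar1 (994 against 452). Such rises occurred in 0.574% of all genes, and no complement gene fell as far, against 0.995% of all genes. All 3 are among the 8 Kupffer cell genes, of which Vsig4 (404 on day 14 against 593 on day 7) and C6 (70.0 against 95.2) were not higher on day 14. Of the 15 Kupffer cell markers, 11 read higher on day 14 than on day 7, with Lyz2 at 41.5% against 18.5% of its Kupffer cell mean and Slc40a1 at 202 against 245, and their part was not tested. Among the other genes of the system, 23 were tested in culture. C1s1 and Lrp1, a scavenger receptor named here after its values were seen, were higher in longer culture (5.52% of all genes). C1s1 read 490.1 and 1257 against 233 and 270.4 on day 1, at a log2 difference of 1.39 (adjusted p = 0.0017). Cd93, Vtn, Fcna and C1qbp were lower (4.27% of all genes), at log2 differences of -2.73, -1.54, -1.50 and -1.24. The part of other cell types in these falls was not tested.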

How the data were processed

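The authors deposited 1 table of 25194 probe sets on 13 arrays, holding intensity on a linear scale from 10.6 to 28854. MAS5 (version 5.0) and Affymetrix Expression Console are named, per the submitters' processing notes, with no role or order, and neither normalization nor background correction is described in those sources. The medians of the arrays were between 216.5 and 232.9, with no detection calls in the table. No further normalization was applied. The number of arrays limits the precision.

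From the deposited intensities, log2(intensity + 82.7) was computed, the constant being the pooled 20th percentile, so low values understate folds. Probe sets with 1 gene symbol (21181) were used, and those with several (1379) or none (2634) were left out. Genes that exceeded 224.5, the pooled median, on 2 or more arrays entered the fits in R 4.3.3 with limma 3.58.1. The population fit used 11 arrays and 12081 genes (residual degrees of freedom 7, prior 4.87). The culture fit used 13 arrays and 12368 genes (8 and 4.47). P-values were two-sided and Benjamini-Hochberg adjusted over all genes within each contrast. The p printed for a population call is the largest of its 3 contrasts. The script was tested on simulated data.

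Members and lists were chosen with earlier results of these data known. All members were described by role. Of other complement genes the 6 called with the largest difference, and of each marker list the 4 with the highest mean, were named. C4a, Cd55b and Cd59b, close copies of members, and Lrp1, Cd93 and C1qbp were named after their values were seen. Alternatives were other constants, filters and normalizations, a replicate block and leaving out each array.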

Additional observations from a re-analysis of the deposited data

How the results depend on the processing

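Of 62 results under 25 alternative settings, giving 1365 values, 1345 values were kept. For a single gene, kept means the same direction and side of the threshold. For counts, kept values include smaller shifts, such as that of genes higher in 1-day HSC without its replicate 1. A call lost by a single gene can also lower a count that is listed as kept. In 8 values a single gene lost its call, the genes being C1ra, Cd55, Cfb, Colec11 and C3ar1, some under several settings. In 12 values a count moved further, and no value reversed. With the pooled median added before logs, members lower in hepatocytes numbered 0 in place of 1, lower in LSEC 1 in place of 2, and lower in hepatocytes than in 1-day HSC 5 in place of 8. With the pooled 5th percentile added, they numbered 2 lower in hepatocytes, 2 in place of 1 lower in hepatocytes than in LSEC, and 3 in place of 1 lower in longer-cultured HSC than in LSEC. Quantile normalization gave 2 lower in hepatocytes than in LSEC. Scaling arrays to the same median gave 2 there and 2 lower in longer-cultured HSC than in LSEC. Leaving out single arrays gave 1 to 3 higher in 1-day HSC (1 without its replicate 2), 1 to 2 lower in hepatocytes than in LSEC (2 without hepatocytes replicate 2) and 1 to 2 lower in longer-cultured HSC than in LSEC (2 without the 14-day array). Same-numbered arrays of the populations shared only a number: of 15 pairs, 2 correlated above 0.1 (r from -0.111 to 0.11). With the replicate number as a block, 13 members were higher in hepatocytes, 8 in Kupffer cells, 1 in LSEC and 3 in 1-day HSC, as without it. No block was possible for the culture comparison, since the 7-day and 14-day arrays carry no replicate number, and background correction was not run on values already summarised. The causes of these shifts were not tested, except that C7 fails the filter when either 1-day HSC array is left out. Without detection calls, signal over background could not be judged for low probe sets.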
